A study of Mus musculus with 16 samples.

Results

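The nuclear-encoded subunits of the mitochondrial respiratory chain and ATP synthase were followed in the cerebral cortex of mice 20 h after whole-body gamma irradiation. Genes were taken by name: symbols beginning with Ndufa, Ndufb, Ndufc, Ndufs, Ndufv, Uqcr, Cox4i, Cox5, Cox6, Cox7, Cox8 or Atp5, together with Sdha to Sdhd and Cyc1, without assembly factors, the testis gene Cox6b2 and pseudogenes. The RefSeq gene table held 88 such genes. No probe matched Cox5b, Ndufb1, Ndufb4b or Ndufb4c, and the Cox8c probe was well above background on 0 of 16 arrays. The remaining 83 genes, of 17436 genes tested, were read on probes that were well above background on at least 4 arrays, and in fact on all 16. They comprised 36 genes of complex I, 4 of complex II, 9 of complex III, 17 of complex IV and 17 of complex V, with Ndufa4 and Ndufa4l2 counted in complex IV.

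The arrays were one-colour Agilent arrays, 1 per mouse, with 4 mice in each of 4 groups. Wild-type littermates and mice labelled as Neil1-/-, which lack a DNA glycosylase of base excision repair, were male, 28 to 42 weeks old and on a C57BL/6 background. Each genotype was sham-treated or given 6 Gy at 0.74 Gy/min. BrdU, a thymidine analogue, was injected at 100 mg/kg before exposure and 2 h after it, in a protocol that makes no exception for sham mice. The labels name no tissue-specific driver of the deletion, so that a genotype difference is that of the whole animal. The values come from whole cortex, in which fewer cells of a type and less RNA per cell cannot be told apart.

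Oxidative phosphorylation is the main source of ATP in neurons. Complex I oxidises NADH and complex II oxidises succinate, and both pass electrons through coenzyme Q to complex III, which reduces cytochrome c. Complex IV then reduces oxygen, and complex V makes ATP from the proton gradient. Most subunits are encoded in the nucleus. The core of the enzymes, apart from complex II, also needs subunits encoded in mitochondrial DNA, for which none of the 13 listed genes had a named probe in these data. Several subunits of complex IV exist as paralogues with different tissue distributions, among them the heart and muscle forms Cox6a2, Cox7a1 and Cox8b.

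Promoters are shown for the 3 genes that passed the test in any comparison, because nuclear subunit genes are known targets of NRF-1, of the ETS factor GABP and of YY1. RefSeq promoter windows on GRCm38.p6, which run from 250 bases before the transcription start to 50 after it, were found for 67 of the 83 genes, with 72 windows in all. The 250 bases before the start are printed 5′ to 3′ on the strand of the gene, with capitals for motif letters found on either strand. Atp5b, the catalytic beta subunit of complex V, lies on the plus strand at chr10:128083057-128083306. Cox6a1, a regulatory subunit of complex IV, lies on the minus strand at chr5:115348959-115349208. Cox8a, the ubiquitous form of the smallest complex IV subunit, lies on the minus strand at chr19:7217617-7217866.
Atp5b: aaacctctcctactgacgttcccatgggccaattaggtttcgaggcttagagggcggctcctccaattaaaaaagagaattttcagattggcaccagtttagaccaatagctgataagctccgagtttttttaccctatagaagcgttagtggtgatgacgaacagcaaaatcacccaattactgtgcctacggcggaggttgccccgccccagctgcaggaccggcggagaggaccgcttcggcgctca
Cox6a1: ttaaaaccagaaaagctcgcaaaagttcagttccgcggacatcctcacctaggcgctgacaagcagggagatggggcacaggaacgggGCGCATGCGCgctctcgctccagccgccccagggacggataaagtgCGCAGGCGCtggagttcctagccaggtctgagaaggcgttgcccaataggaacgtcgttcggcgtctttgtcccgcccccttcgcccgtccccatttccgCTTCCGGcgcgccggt
Cox8a: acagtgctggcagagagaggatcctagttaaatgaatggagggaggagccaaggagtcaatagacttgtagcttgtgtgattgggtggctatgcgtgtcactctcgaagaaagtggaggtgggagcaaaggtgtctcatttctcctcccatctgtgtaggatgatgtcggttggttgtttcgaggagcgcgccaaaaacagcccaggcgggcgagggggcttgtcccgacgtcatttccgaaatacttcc
The Cox6a1 sequence held 3 matches to the NRF-1 letters GCGCNTGCG, 2 of which overlap on opposite strands, and 1 copy of the ETS letters CCGGAAG, read as their reverse complement. The printed bases of Atp5b and Cox8a held none of the 3 motifs. In the whole windows Atp5b held 1 copy of the YY1 letters AANATGGCG and Cox8a held 2 copies of the ETS letters, all of them at or beyond the start. No motif of the 3 searched was therefore common to all 3 genes, while Cox6a1 and Cox8a both held the ETS letters. Over all windows of these genes, 34.7% held the NRF-1 letters, 23.6% the ETS letters and 13.9% the YY1 letters, against 6.31%, 8.86% and 2.38% of all 32851 promoter windows, and 10.6%, 13.8% and 3.78% of those of the genes tested. At least 1 motif was found for 19 of 32 complex I genes, 3 of 3 of complex II, 4 of 5 of complex III, 3 of 12 of complex IV and 13 of 15 of complex V. A match is a run of letters and was not tested as a binding site.

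The arrays of the 4 groups differed in brightness. The 75th percentile of the processed intensity averaged 2415 ± 274 (SD, n = 4) on sham wild-type arrays, 2301 ± 235 in irradiated wild type, 1778 ± 343 in sham labelled knockouts and 1333 ± 301 in irradiated labelled knockouts. Each genotype lay on a slide of its own and each treatment on a row of its own, so that genotype and slide, and treatment and slide row, cannot be told apart. The Neil1 probe did not check the genotype. It read -4.32 to -3.30 (log2 signal relative to the 75th percentile of the array) on wild-type arrays and -2.60 to -2.15 on labelled knockout arrays, and the sources used here do not give its position relative to the deletion. Markers of cortical neurons averaged between 4.07 and 4.49 on every array on the same scale, and those of astrocytes between 1.91 and 2.19. Other marker sets varied more between mice of a group. Striatal markers averaged between -0.49 and 3.30 within irradiated wild type. Within sham labelled knockouts, oligodendrocyte markers averaged between 2.02 and 3.60 and red cell markers between -2.92 and 2.32. The part of such tissue content in the results was not tested. The skeletal muscle markers averaged between -3.81 and -2.78, with the Ckm probe not above background.

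Expression of the subunits varied less between mice than that of all genes tested, most of which were dimmer. All values below are log2 signals relative to the 75th percentile of the array unless quantile normalization, which gives every array the same distribution, is named. The median standard deviation within groups was 0.14 over the 83 genes and 0.25 over all genes tested, and after quantile normalization it was 0.11 and 0.25. Of the 83 genes, 34 had a mean signal between 4 and 5 and 32 above 5, against 717 and 429 of all 17436. For irradiation in wild type the median standard error was 0.11 for the 83 genes and 0.17 for all genes. It was 0.10 for 76 cytosolic ribosomal proteins and 0.12 for 16 glycolysis genes. The 3 widest standard deviations of the 83 genes were those of Cox8b at 0.40, Cyc1 at 0.37 and Cox7a1 at 0.36. Cyc1, which encodes cytochrome c1 of complex III, owed its spread to 1 irradiated wild-type array at 3.16, where the other 3 arrays of that group read 4.46 to 4.55. Arrays shifted as a whole in the map of genes by array. The median over the 83 genes of an array's deviation from each gene's mean was -0.20 on replicate 1 of sham wild type, the brightest array, and 0.22 on replicate 4 of irradiated labelled knockouts, the dimmest.

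**Figure D1:**
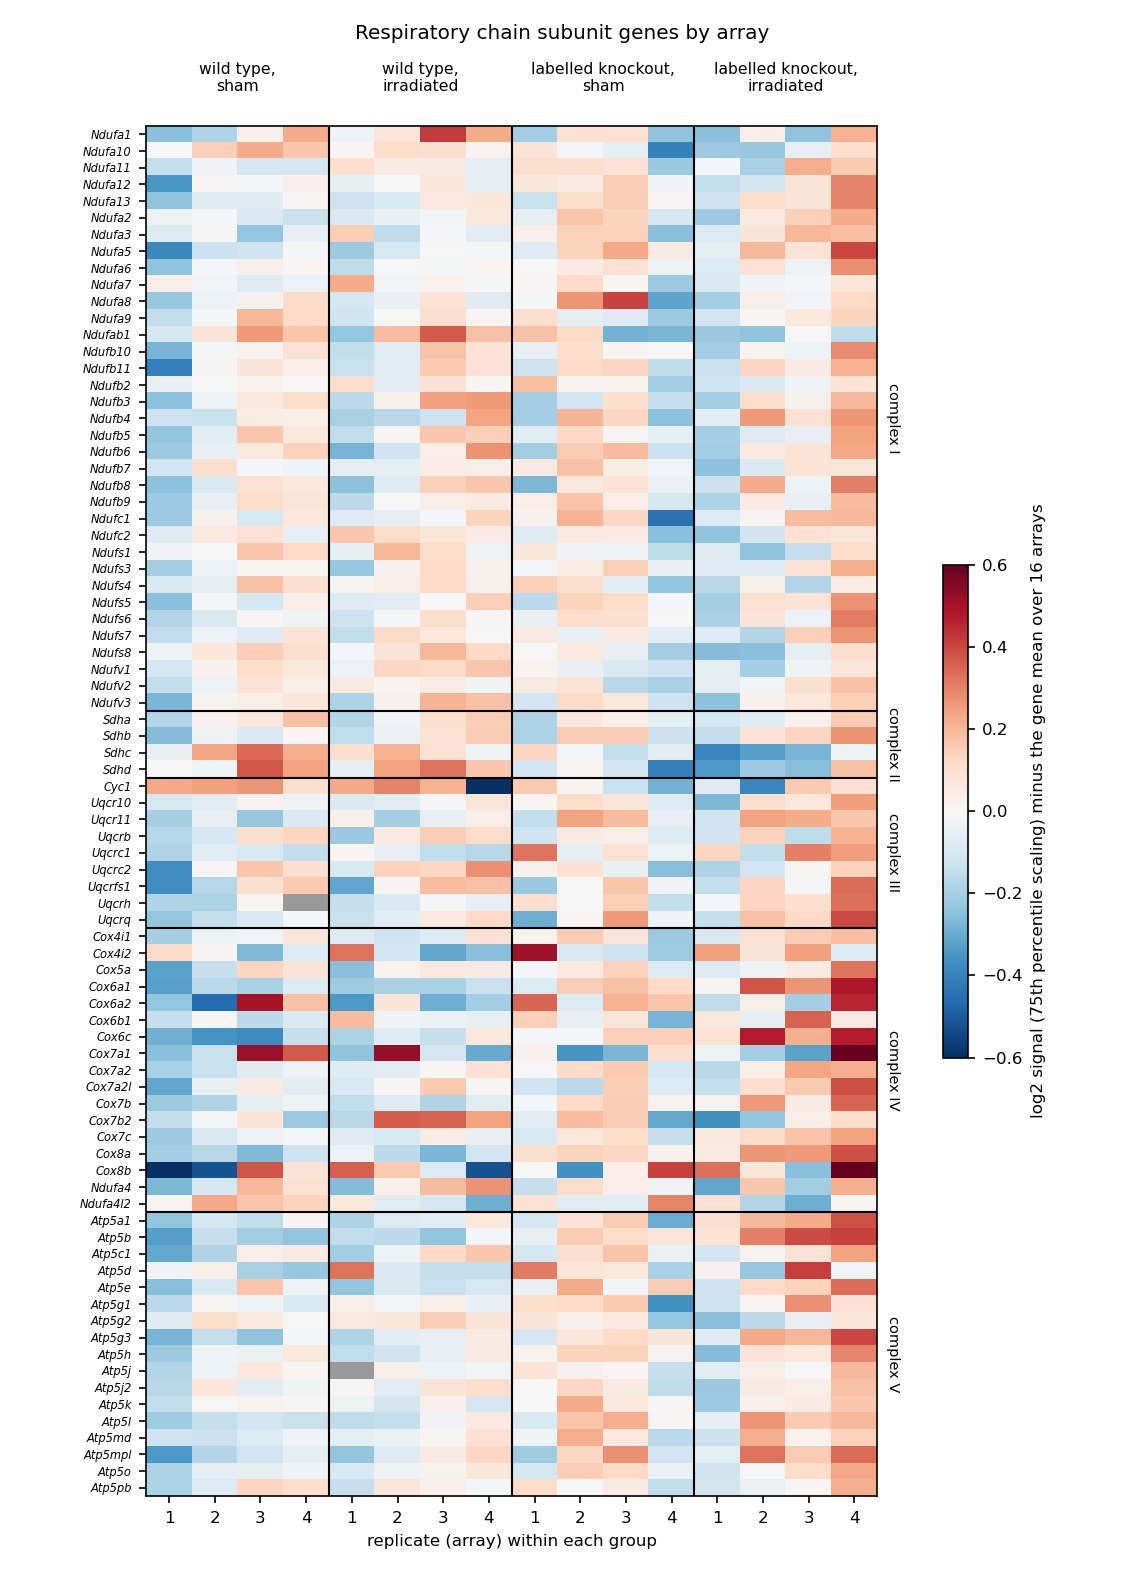
Log2 signal relative to the 75th percentile of the array, minus the gene's mean over 16 arrays, for 82 of the 83 genes (one line of cells each, by complex) on each array (columns, by group), with 2 grey cells where the spot carried an outlier mark. Whole columns are lighter or darker: replicate 1 of sham wild type is low for most genes and replicate 4 of irradiated labelled knockouts is high, with array medians over the 83 genes of -0.20 and 0.22.

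The first question was whether radiation changed the expression of the chain at 20 h. None of the 83 genes passed limma's test at an adjusted p under 0.05 in wild type, in labelled knockout or averaged over genotypes. Over all genes tested, 13 (0.0746%), 21 (0.12%) and 51 (0.292%) passed in these comparisons. At an unadjusted p under 0.05 the counts among the 83 genes were 0, 4 and 4, against 1.97%, 4.62% and 5% of all genes. The median change of the 83 genes was 0.05 in wild type, 0.04 in labelled knockout and 0.04 on average, where the medians of all genes were 0.01, 0.00 and 0.00. After quantile normalization 0 of the 83 genes passed in these comparisons, beside 0.0746%, 0.103% and 0.218% of all genes. The medians of the 83 genes were then 0.01, 0.00 and 0.00, and 49, 43 and 45 of the 83 changes were above 0 instead of 65, 60 and 67. Of all genes 55.6%, 46.3% and 49.9% were above 0 after quantile normalization, instead of 54.5%, 49.8% and 51.7%. With 75th percentile scaling, single changes of the 83 genes lay between -0.30 and 0.27 in wild type and between -0.24 and 0.26 in labelled knockout. No gene separated irradiated from sham arrays without overlap in either genotype, while 1.96% and 2.2% of all genes did. After quantile normalization, under which 2.01% and 1.9% of all genes did, Cox7c, a small subunit of complex IV, separated them in labelled knockout. It then read 15.03, 15.09, 15.13 and 15.03 in sham labelled knockouts and 15.26, 15.19, 15.23 and 15.25 after irradiation (0.16 ± 0.07, limma adjusted p = 1).

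The precision of these comparisons bounds the change of single genes, with intervals that were not adjusted for the number of genes. The median standard error was 0.11 within a genotype and 0.08 for the average. The 95% confidence interval of the average change lay within 1.5-fold in both directions for 83 of 83 genes, against 13763 of all 17436. The same held for 76 of 76 cytosolic ribosomal proteins, 78 of 78 mitochondrial ribosomal proteins and 46 of 48 assembly factors. In wild type the interval lay within 1.5-fold for 78 of the 83 genes and in labelled knockout for 81, and within 2-fold for 83 in both. After quantile normalization the counts within 1.5-fold were 82 for the average, 78 in wild type and 79 in labelled knockout.

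By complex, the median irradiation change in wild type was 0.05 for complex I, 0.00 for complex II, 0.05 for complex III, 0.04 for complex IV and 0.08 for complex V. In labelled knockout the medians in the same order were 0.01, 0.01, 0.05, 0.10 and 0.03. After quantile normalization the medians of the 5 complexes lay between -0.03 and 0.02 in wild type and between -0.01 and 0.03 in labelled knockout. The largest of these medians, 0.10, was that of complex IV in labelled knockouts with 75th percentile scaling.

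The 3 genes with the smallest p in each of these comparisons were Cox6c, Ndufa4l2, Cox7b2, Atp5b and Atp5a1, and none of them passed. Cox6c, a small subunit of complex IV, read 5.02, 4.95, 4.93 and 5.17 in sham wild type and 5.12, 5.23, 5.17 and 5.37 in irradiated wild type. It read 5.30, 5.30, 5.45 and 5.45 in sham labelled knockouts and 5.39, 5.78, 5.52 and 5.78 after irradiation. Irradiated and sham arrays overlapped in both genotypes, and the 2 changes were 0.20 ± 0.11 (SE) and 0.24 ± 0.11. On average the Cox6c change was 0.22 ± 0.07 (limma adjusted p = 0.613), and 0.17 ± 0.07 after quantile normalization (limma adjusted p = 0.869).

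In labelled knockout the smallest p belonged to Atp5b and Atp5a1, the beta and alpha subunits of the catalytic head of complex V. Their changes were 0.22 ± 0.09 and 0.26 ± 0.11 (limma adjusted p = 0.967 for both), and 0.07 ± 0.07 and 0.13 ± 0.09 after quantile normalization. Atp5a1 read 6.09, 6.28, 6.35 and 5.9 in sham labelled knockouts and 6.29, 6.39, 6.42 and 6.58 after irradiation, so that the groups overlapped. In wild type the changes of Atp5b and Atp5a1 were 0.09 ± 0.09 and 0.05 ± 0.11.

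Ndufa4l2, a paralogue of the complex IV subunit Ndufa4 that is known from pericytes and from hypoxic cells, read -1.43, -1.21, -1.27 and -1.30 in sham wild type and -1.37, -1.50, -1.54 and -1.73 after irradiation. In labelled knockout it read -1.35, -1.50, -1.50 and -1.14 in sham and -1.35, -1.61, -1.73 and -1.43 after irradiation. The groups overlapped, and the average change was -0.20 ± 0.08 (limma adjusted p = 0.883), with -0.21 after quantile normalization. Of 10 pericyte and smooth muscle markers none passed in this comparison. Of these, 7 had average changes of -0.40 to -0.09, while Acta2, Tagln and Myh11 had 0.28, 0.23 and 0.17, and the part of such cells in the Ndufa4l2 value was not tested. Cox4i2, the hypoxia-related form of Cox4i1, is also known from pericytes and had an average change of 0.03 ± 0.12 (limma adjusted p = 1).

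The irradiation change of Cox7b2, a paralogue of Cox7b, was 0.27 ± 0.15 in wild type and -0.11 ± 0.15 in labelled knockout. The difference between these changes, -0.38 ± 0.21, had the smallest p of the 83 genes for the interaction of irradiation and genotype (limma adjusted p = 1). Atp5a1, the alpha subunit of complex V, followed with 0.21 ± 0.15 and Cox6a1 with 0.19 ± 0.15. Over the 83 genes 0 passed the interaction test and 0 had an unadjusted p under 0.05, and over all genes 0% and 1.28% did in limma's fit. The median interaction was -0.01 over the 83 genes and -0.01 over all genes.

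The second question was whether the labelled knockout differed from wild type. In sham mice 0 of the 83 genes passed, against 0.0516% of all genes, and 6 had an unadjusted p under 0.05 in limma's fit, against 7.68% of all genes. After irradiation 3 genes passed, and each was higher in labelled knockout: Atp5b, Cox6a1 and Cox8a. Of all genes tested 145 (0.832%) passed as higher and 62 (0.356%) as lower in this comparison. At an unadjusted p under 0.05 the count was 14 of 83 genes, or 16.9%, beside 16.6% of all genes. After quantile normalization 0 of the 83 genes passed in either comparison. In sham 0.0688% of all genes did, and 37 (0.212%) passed as higher and 52 (0.298%) as lower after irradiation, so that the split of calls over all genes turned with the scaling.

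Atp5b read 5.98, 6.17, 6.10 and 6.07 in sham wild type, 6.16, 6.15, 6.07 and 6.30 in irradiated wild type, 6.26, 6.46, 6.42 and 6.38 in sham labelled knockouts and 6.39, 6.61, 6.70 and 6.72 in irradiated labelled knockouts. Every array of irradiated labelled knockouts was above every irradiated wild-type array, and the sham groups did not overlap either. The difference after irradiation was 0.43 ± 0.09, a fold of 1.35 (95% confidence interval 0.23 to 0.63, limma adjusted p = 0.038), and in sham it was 0.30 ± 0.09 (limma adjusted p = 0.415). The other 2 Atp5b probes gave 0.27 and 0.82 after irradiation. After quantile normalization the 16 arrays lay between 17.04 and 17.28 and the difference was 0.07 ± 0.07 (limma adjusted p = 0.637).

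Cox6a1 read 6.67, 6.83, 6.80 and 6.91 in sham wild type, 6.78, 6.80, 6.80 and 6.86 in irradiated wild type, 6.91, 7.14, 7.17 and 7.11 in sham labelled knockouts and 7.01, 7.37, 7.26 and 7.48 in irradiated labelled knockouts. The genotypes did not overlap after irradiation, and in sham the lowest labelled knockout array and the highest wild-type array were both at 6.91. The difference after irradiation was 0.47 ± 0.10, a fold of 1.39 (95% confidence interval 0.25 to 0.69, limma adjusted p = 0.0428), and in sham it was 0.28 ± 0.10 (limma adjusted p = 0.522). After quantile normalization the arrays lay between 17.77 and 17.91, and the difference was 0.00 ± 0.06 (limma adjusted p = 0.997). Cox6a1, with a mean signal of 6.99, lay near the top of the arrays, where quantile normalization leaves few values to take. The values 17.89 and 17.91 each recurred on arrays of both genotypes. A small difference was therefore in large part built in, and the loss of this call does not decide whether the genotypes differed.

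Cox8a read 6.18, 6.22, 6.12 and 6.26 in sham wild type, 6.35, 6.23, 6.11 and 6.27 in irradiated wild type, 6.48, 6.52, 6.51 and 6.41 in sham labelled knockouts and 6.44, 6.65, 6.64 and 6.77 in irradiated labelled knockouts. The genotypes overlapped under neither treatment. The difference after irradiation was 0.39 ± 0.09, a fold of 1.31 (95% confidence interval 0.20 to 0.57, limma adjusted p = 0.0455), and in sham it was 0.28 ± 0.09 (limma adjusted p = 0.406). After quantile normalization the arrays lay between 17.17 and 17.31, and the difference was 0.03 ± 0.06 (limma adjusted p = 0.840). The value 17.28 recurred on arrays of both genotypes, so that the limit given for Cox6a1 under quantile normalization holds here as well. All 3 calls were lost under that scaling, without replicates 3 and 4 of irradiated labelled knockouts, which were the 2 dimmest arrays, and without any 1 of 6 arrays taken singly: replicates 2, 3 and 4 of irradiated wild type or of irradiated labelled knockouts.

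**Figure D2:**
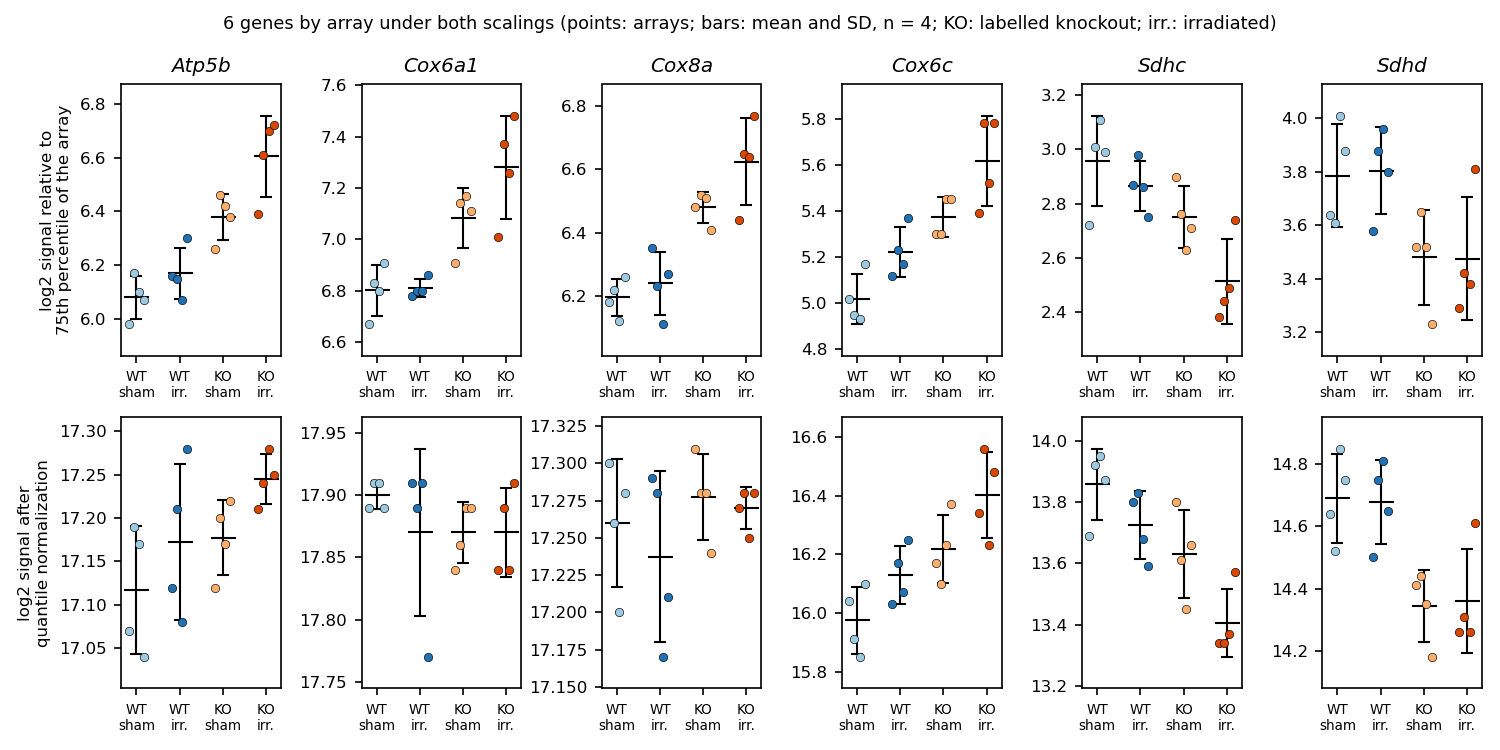
Signal of 6 genes by array, as log2 signal relative to the 75th percentile of the array (top) and after quantile normalization (bottom), with points for arrays and bars for mean and SD (n = 4). Atp5b, Cox6a1 and Cox8a are higher in labelled knockout in the top panels and overlap between genotypes in the bottom panels, where their 16 values span no more than 0.24, while Cox6c, Sdhc and Sdhd, which passed under neither scaling, differ between genotypes after irradiation by 0.40, -0.35 and -0.33 in the top panels and by 0.27, -0.32 and -0.32 in the bottom panels.

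The 3 calls among the 83 genes sat on bright probes. Of the 83 genes, 32 had a mean signal above 5, and the 3 calls were among them. Their median difference after irradiation was 0.08, where the 397 other genes above 5 had a median of 0.14 and 32 of them (8.06%) passed as higher in labelled knockout. Between 4 and 5 the medians were 0.03 for 34 subunit genes and 0.02 for 683 other genes. After quantile normalization the medians above 5 were -0.04 for the subunit genes and -0.03 for the others. In sham the medians above 5 were 0.11 and 0.15. These medians of subunit genes and other genes lay within 0.06 of each other. Between 2 and 4 the medians after irradiation were 0.02 for 10 subunit genes and -0.06 for the other genes, and the remaining 7 subunit genes lay below 2 in ranges with at most 4 of them each. Among the cell type markers, the astrocyte glutamate transporter Slc1a2 passed in this comparison (0.58, limma adjusted p = 0.0437), with a median of 0.01 over 6 astrocyte markers. None of 6 markers of parvalbumin interneurons passed, with differences from -0.24 (Tac1) to 0.83 (Syt2) and a median of 0.40. None of 7 markers of cortical neurons passed, with differences from -0.27 (Gad2) to 0.29 (Syt1) and a median of 0.21. The part of these cell types in the result was not tested.

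**Figure D3:**
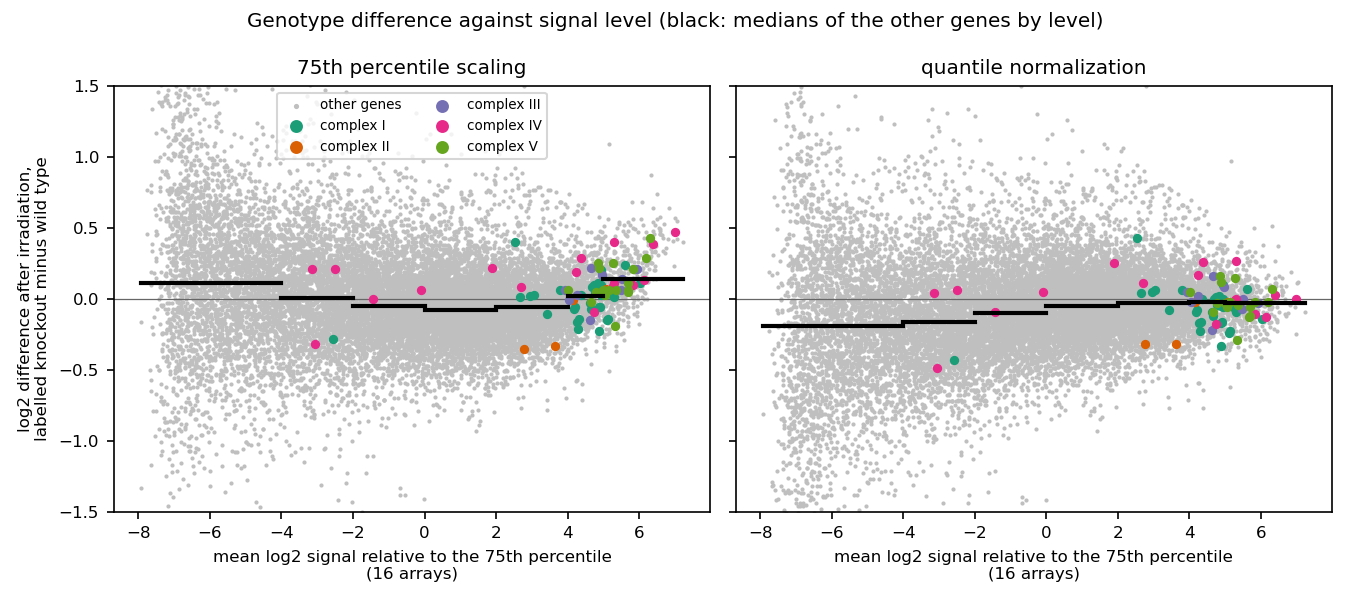
Log2 difference after irradiation, labelled knockout minus wild type, against mean log2 signal over 16 arrays, for the other genes (grey) and the 83 genes (colours by complex), with black lines for the medians of the other genes in ranges of signal. With 75th percentile scaling (left) the line lies at 0.11 below a signal of -4, at -0.08 between 0 and 2 and at 0.14 above 5. After quantile normalization (right) it lies at -0.19, -0.05 and -0.03 in these ranges. The vertical axis is limited to 1.5 in both directions.

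With 75th percentile scaling, dimmer arrays tended to have higher array medians of the 83 genes. Against the log2 75th percentile of the 16 arrays, the median deviation had a Pearson correlation of -0.58 and a Spearman correlation of -0.56, given as a description of arrays in 4 groups. The percentile is itself subtracted in the deviation, so that a negative correlation is in part built in. The correlation cannot by itself show a relation to brightness. Within genotypes the Pearson correlation was -0.75 over 8 wild-type arrays and -0.52 over 8 labelled knockout arrays. Without the 2 arrays farthest from the median percentile it was -0.35, so that much of it rested on them. After quantile normalization it was 0.17 over all arrays, -0.63 over the wild-type arrays and -0.16 over the labelled knockout arrays. With brightness as a covariate 0 of the 83 genes passed, the median genotype difference after irradiation was -0.19, and 0 of all genes passed. The percentile ran from 1976 to 2510 in irradiated wild type and from 1075 to 1766 in irradiated labelled knockouts. These ranges do not overlap, so that the fit can hardly separate brightness from genotype there, and the loss of calls does not decide between them. Replicate 1 was the brightest array of each group. Its 75th percentile was 2726 and 2510 in sham and irradiated wild type, and 2240 and 1766 in sham and irradiated labelled knockouts. Replicate 4 had 2078, 1976, 1522 and 1075 in the same order. Same-numbered arrays shared a slide column, so that brightness and slide column cannot be told apart within a group.

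**Figure D4:**
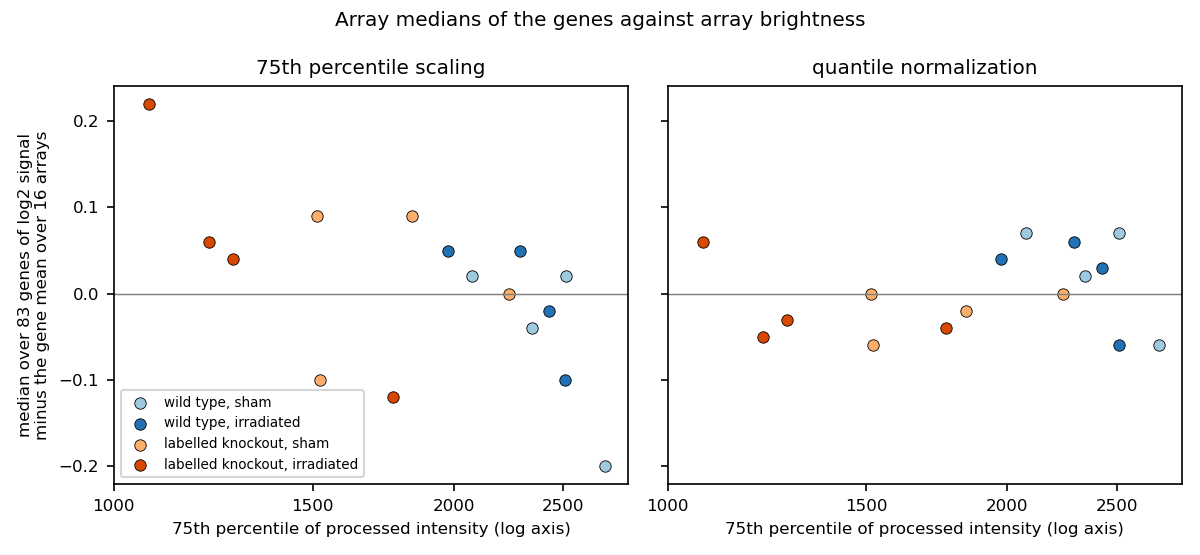
Median over the 83 genes of log2 signal minus the gene mean, against the 75th percentile of processed intensity on a log axis, with 1 point per array coloured by group. With 75th percentile scaling (left) the dimmest array lies at 0.22 and the brightest at -0.20. The points between them do not fall steadily, with -0.12 at a percentile of 1766 and 0.02 at 2513. After quantile normalization (right) the points lie between -0.06 and 0.07.

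Complex I, the NADH dehydrogenase, showed no call. The median genotype difference of its 36 genes was 0.03 in sham and 0.02 after irradiation, and -0.07 and -0.05 after quantile normalization. After irradiation 22 of the 36 differences were above 0, and 10 after quantile normalization, beside 45.4% and 37.2% of all genes. The 3 genes that follow were below 0 in that comparison on the probe used. Ndufs8, which holds iron-sulphur clusters, differed by -0.21 ± 0.10 (limma adjusted p = 0.299), and by -0.23 after quantile normalization. Ndufab1, the mitochondrial acyl carrier protein, differed by -0.28 ± 0.14 (limma adjusted p = 0.363), and by -0.43 after quantile normalization. Ndufv1, part of the NADH-binding module, differed by -0.14 on the probe used and by 0.24 on its other probe.

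Complex II, the succinate dehydrogenase, has 4 subunits that are all encoded in the nucleus. Its flavoprotein Sdha differed by -0.01 ± 0.10 after irradiation and its iron-sulphur protein Sdhb by 0.07 ± 0.12. The membrane anchors Sdhc and Sdhd had values below 0, and neither passed under either scaling. Sdhc read 2.87, 2.98, 2.86 and 2.75 in irradiated wild type and 2.38, 2.44, 2.49 and 2.74 in irradiated labelled knockouts. These 4 arrays were all below the 4 wild-type arrays, the closest by 0.01, and Sdhc was the 1 gene of the 83 lower without overlap, where 4.43% of all genes were. Its difference was -0.35 ± 0.11 (limma adjusted p = 0.114), and in sham it was -0.21 ± 0.11 (limma adjusted p = 0.683).

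Sdhd read 3.64, 3.61, 4.01 and 3.88 in sham wild type, 3.58, 3.88, 3.96 and 3.80 in irradiated wild type, 3.52, 3.65, 3.52 and 3.23 in sham labelled knockouts and 3.29, 3.42, 3.38 and 3.81 in irradiated labelled knockouts. The genotypes overlapped under both treatments. The difference was -0.33 ± 0.14 after irradiation (limma adjusted p = 0.245) and -0.31 ± 0.14 in sham (limma adjusted p = 0.633). Quantile normalization left both anchors at -0.32 after irradiation, and over the 22 alternative settings the values ran from -0.46 to -0.30 for Sdhc and from -0.51 to -0.27 for Sdhd. Both passed only with normexp background correction (limma adjusted p = 0.0149 and 0.0471), a setting that passed 3206 of all genes and 6 of the 83.

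Complex III, the cytochrome c reductase, had median differences of 0.08 in sham and 0.06 after irradiation, and of -0.06 and 0.00 after quantile normalization. None of its 9 genes passed. Uqcrc1, a core protein of the matrix side, read 4.48, 4.59, 4.57 and 4.51 in sham wild type and 4.98, 4.60, 4.75 and 4.63 in sham labelled knockouts. The groups did not overlap, by a margin of 0.01, and the difference was 0.20 ± 0.11 (limma adjusted p = 0.713). Cyc1 differed by 0.03 ± 0.25 after irradiation, the widest error of the complex.

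Complex IV, the cytochrome c oxidase, held 2 of the 3 calls. Of its 17 genes 15 had values above 0 after irradiation and the median was 0.13, where quantile normalization gave 11 genes above 0 and a median of 0.03. Among all genes 45.4% were above 0, and 37.2% after quantile normalization. Cox6c, given above by array, was higher without overlap after irradiation (0.40 ± 0.11, limma adjusted p = 0.0847) and in sham (0.36 ± 0.11, limma adjusted p = 0.379). After quantile normalization its differences were 0.27 (limma adjusted p = 0.183) and 0.24 (0.593). Cox7b read 4.23, 4.30, 4.2 and 4.31 in irradiated wild type and 4.40, 4.64, 4.43 and 4.73 in irradiated labelled knockouts. The groups did not overlap, and the difference was 0.29 ± 0.09 (limma adjusted p = 0.124), with 0.26 ± 0.07 after quantile normalization (0.111). Together with Ndufab1, Sdhc, Sdhd and Cox7b2, Cox6c and Cox7b had differences of at least 0.26 in size and of the same sign under both scalings without passing under either. Ndufab1 and Cox7b2 were dim, with mean signals of -2.57 and -3.05. The other genes between -4 and -2 had a median difference of 0.01, and of -0.16 after quantile normalization.

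Among the tissue-restricted forms of complex IV no gene passed in any comparison. Cox6a2 differed between genotypes after irradiation by 0.22 and its paralogue Cox6a1 by 0.47. Cox4i1 differed by 0.13 and Cox4i2 by 0.21 ± 0.17. Cox7a1 differed by 0.06 ± 0.24, Cox7a2 by 0.09 and Cox7a2l, a supercomplex factor, by 0.11. Cox7b2 differed by -0.32 ± 0.15 (limma adjusted p = 0.315). Ndufa4l2 differed by 0.00 ± 0.11.

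Complex V, the ATP synthase, had 15 of 17 genes above 0 after irradiation, with a median of 0.06, and 16 of 17 above 0 in sham, with a median of 0.12. After quantile normalization 5 and 6 of the 17 were above 0 and the medians were -0.03 and -0.04. Among all genes 45.4% after irradiation and 45.3% in sham were above 0, and 37.2% and 39.3% after quantile normalization. Beside Atp5b, its partner in the catalytic head Atp5a1 read 6.01, 6.12, 6.13 and 6.26 in irradiated wild type and 6.29, 6.39, 6.42 and 6.58 in irradiated labelled knockouts. These groups did not overlap, and the difference was 0.29 ± 0.11 (limma adjusted p = 0.188), with 0.33 on its other probe and -0.02 after quantile normalization. The 3 genes for the proton-carrying c subunit differed by 0.06 (Atp5g1), -0.19 (Atp5g2) and 0.25 (Atp5g3), although they encode the same mature protein. Atp5g2 had the smallest p of the 83 genes after quantile normalization, at -0.29 ± 0.08 (limma adjusted p = 0.0969).

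**Figure D5:**
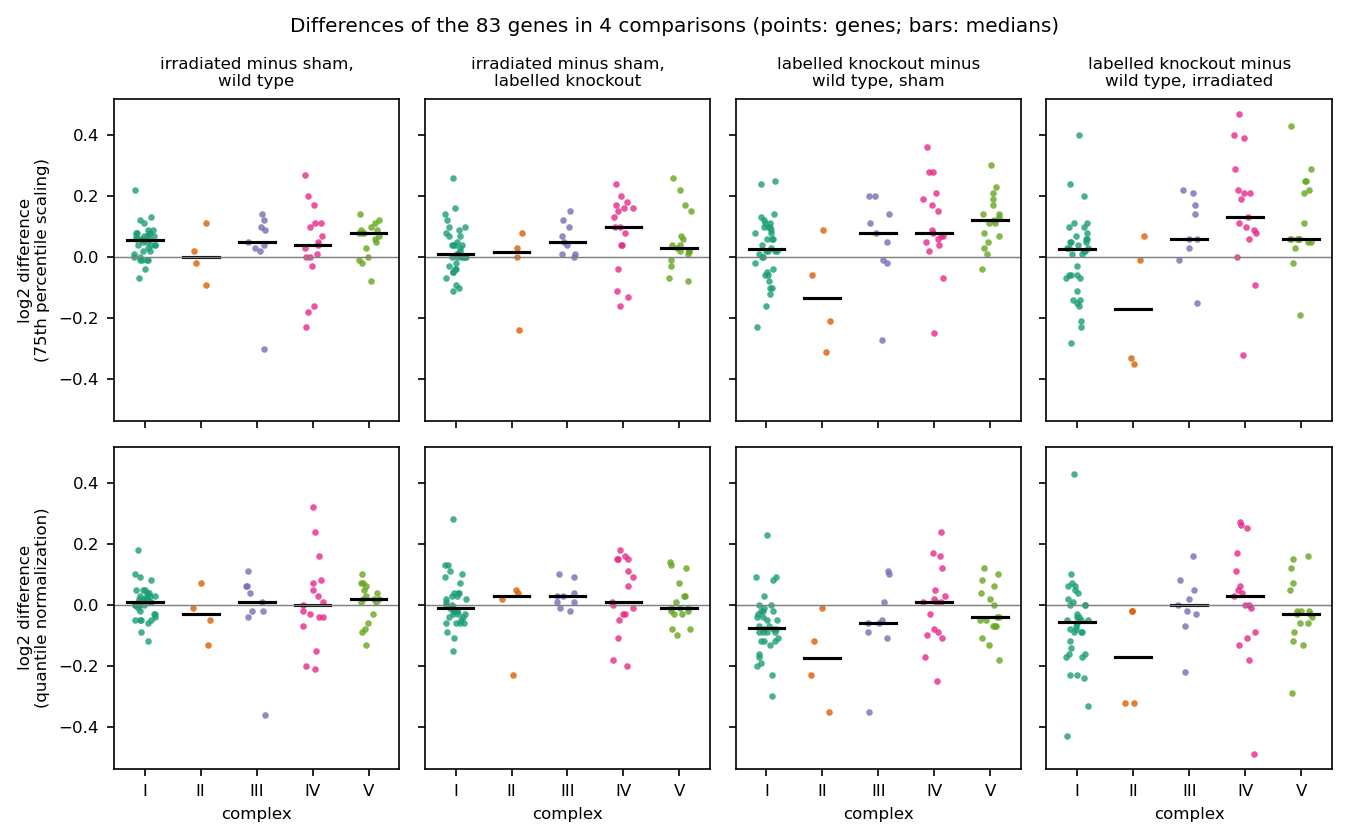
Log2 differences of the 83 genes (points) by complex in 4 comparisons, with bars for medians, under 75th percentile scaling (top) and quantile normalization (bottom). Irradiation medians reach at most 0.10, and the genotype medians of complexes IV and V lie above 0 in the top panels and between -0.04 and 0.03 in the bottom panels, while complex II lies at -0.13 and -0.17 in the top panels and at -0.17 in the bottom panels.

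Over the 83 genes, 7 were higher in labelled knockout without overlap in sham, where 2.74% of all genes were, and 7 after irradiation, where 4.3% of all genes were. Atp5b, Cox6a1, Cox6c, Cox7b and Cox8a were in both groups of 7. After quantile normalization 2 genes were higher and 6 lower in sham, beside 1.74% and 3.01% of all genes. After irradiation 2 were higher and 5 lower, beside 2.6% and 5.94%. The sham and irradiated comparisons use different mice but the same slides. Across the 83 genes their differences had a correlation of 0.78, with the same sign for 70 genes, and across all genes 0.56; after quantile normalization the correlations were 0.69 and 0.59. For the irradiation change in wild type and in labelled knockout, the correlation was 0.33 over the 83 genes and 0.20 over all genes. These correlations are across genes, which are not independent replicates.

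Of the 83 genes, 17 had more than 1 kept probe. For 13 of these all probes gave the same sign of the genotype difference after irradiation, and for 2 genes the probes differed by more than 0.3.

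Genes that build or feed the chain were read from lists. After irradiation 0 of 48 assembly factors passed between genotypes, with a median of -0.09, and 0 of 17 genes of electron carriers and coenzyme Q synthesis, with a median of -0.13. None of 18 regulators of mitochondrial genes, 78 mitochondrial ribosomal proteins and 24 import proteins passed, with medians of -0.13, -0.14 and -0.06, beside -0.03 for all genes. Quantile normalization gave medians of -0.10, -0.13, -0.12, -0.12 and -0.06 for these 5 lists in the same order, beside -0.08 for all genes. The mitochondrial ribosomal proteins had 65 of 78 values below 0, and 62 of 78 after quantile normalization. Of all 17436 genes 9527 were below 0, and 10951 after quantile normalization. Under quantile normalization Mrps26 passed as lower (-0.59, limma adjusted p = 0.0491).

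The 18 genes of pyruvate dehydrogenase and the citric acid cycle had a median of -0.04 between genotypes after irradiation. The 16 glycolysis genes had a median of 0.19 and 0 calls, and a median of -0.08 after quantile normalization. Of 76 cytosolic ribosomal proteins 1 passed, Rpl4 (0.44, limma adjusted p = 0.0286), which did not pass after quantile normalization (0.33, limma adjusted p = 0.0741). The list median was 0.02, and -0.09 after quantile normalization. In the average over genotypes 0 genes of these 8 lists passed for irradiation, and the list medians lay between 0.00 and 0.06.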

How the data were processed

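RNA from the cerebral cortex of 16 mice was hybridised to one-colour Agilent arrays, 4 per group. The authors deposited each array's Feature Extraction output (version 12.0.3.1, per the file headers), and the processed intensity and the background flags were used. The authors also deposited a table of score values, in which each array has mean 0, SD 1 and a median of -0.08; the sources used here do not name their log base, and the table served as an alternative only. Spots with outlier marks were left out, log2 values were averaged per probe, and the 75th percentile in each file header was subtracted. Probes (39589 of 56605) well above background on at least 4 arrays were kept. RefSeq accessions, on 35886 probes, were matched to GRCm38.p6 symbols, which named 32994 probes, and the brightest probe stood for a gene.

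limma 3.58.1 (R 4.3.3) was fitted to all 4 groups over 17436 genes, with Benjamini-Hochberg adjustment and a threshold of 0.05, for 6 contrasts; the residual degrees of freedom were 12. Quantile normalization was run beside it throughout. The number of arrays limits the precision. Replicates are separate mice as far as the labels say. The members and lists were chosen with earlier results of these data known. Named members were those that passed or had the 3 smallest p in a contrast, and isoform sets; Ndufs8, Ndufab1, Ndufv1, Sdha to Sdhd, Uqcrc1, Cyc1, Cox7b, Cox7c, Cox6c, Atp5g2 and Atp5a1 where outside that rule, and the list genes named, were chosen after their values were seen. Some single-gene results are not reported here. Normexp used the median signal, as mean signal was not in the columns used. Alternatives are in the closing section.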

Additional observations from a re-analysis of the deposited data

Results flagged for a closer look

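Within groups of 4 arrays, 1 array of a gene was taken as far from the others when its gap to the nearest, divided by the group's range, exceeded Dixon's 95% critical value. This was so in 15 of 330 groups of the 83 genes, and chance gives about 1 in 20, or 16. Of the 15, 10 were on replicate 1 of a wild-type group. In sham wild type, replicate 1 was low for Atp5k (5.2, others 5.35 to 5.37), Ndufa12 (4.66, others 5 to 5.04), Ndufa6 (4.50, others 4.73 to 4.77), Ndufb11 (4.47, others 4.90 to 4.96) and Ndufv3 (4.61, others 4.90 to 4.96). This was the brightest array. In irradiated wild type, replicate 1 was low for Cox5a (5.59, others 5.86 to 5.90) and Ndufa6 (4.59, others 4.73 to 4.75), and high for Atp5d (4.33, others 3.87 to 3.92), Cox6b1 (2.89, others 2.65 to 2.67) and Ndufa7 (4.87, others 4.63 to 4.67). Replicate 4 of that group was low for Cyc1 (3.16, others 4.46 to 4.55) and high for Ndufb4 (5.18, others 4.75 to 4.82). In sham labelled knockouts, replicate 4 was low for Atp5g1 (4.64, others 5.11 to 5.16), Atp5g2 (5.10, others 5.36 to 5.41) and Ndufa11 (2.44, others 2.75 to 2.76).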

How the results depend on the processing

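The counts of 0 genes passed in the irradiation comparisons, in the sham genotype comparison and in the interaction were also 0 under each alternative run. The 3 calls between genotypes after irradiation became 0 with quantile normalization, with the fit of the 2 groups only, with array brightness as a covariate, with the authors' deposited values, without the 2 dimmest arrays and with the 75th percentile taken over probes, an alternative chosen after seeing the data. They became 1 with z-score normalization and 6 with normexp background correction, and 0 to 3 when 1 array was left out. Cox6a1 was at 0 with quantile normalization and with the deposited values, with its sign turned. Over all genes the 207 calls of that comparison became 89 with quantile normalization, 134 with z-scores, 3206 with normexp, 1798 without a filter on dim probes, 18 with the fit of the 2 groups, 434 with array weights, 494 with the mean of all probes, 0 with the covariate, 81 with the deposited values, 4 without the 2 dimmest arrays and 17 to 470 without 1 array. The median of the 83 genes moved by more than the spread of array medians (SD 0.10) for irradiation in wild type with z-scores (-0.06), for irradiation in labelled knockout with the covariate (-0.09) and without the dimmest arrays (-0.07), for genotype in sham with quantile normalization (-0.05) and the covariate (-0.06), for genotype after irradiation with the covariate (-0.19) and without the dimmest arrays (-0.05), and for the interaction with z-scores (0.12). Leaving out 1 array gave medians of 0.00 to 0.08, -0.03 to 0.09, 0.02 to 0.07, 0.03 to 0.11, 0.00 to 0.12 and -0.08 to 0.05 for the 6 comparisons in the order irradiation in wild type, in labelled knockout and averaged, genotype in sham and after irradiation, and interaction. The causes were not tested.

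Same-numbered arrays shared a slide column. The correlation of their deviations was over 0.1 in 1, 3, 2 and 1 of 4 pairs in the 4 simple comparisons. For irradiation in labelled knockout the correlations were 0.52, 0.05, 0.27 and 0.37. The numbers were not taken as pairs, and the part of the slide column was not tested beyond the fit that follows. With the replicate number as a block, 3 of the 83 genes and 289 of all genes passed between genotypes after irradiation; Cox6c passed (limma adjusted p = 0.0488) and Cox8a did not (0.0527).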
